A study of Arabidopsis thaliana with 4 samples.

Results

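The genes described here are 55 ribosome assembly and pre-rRNA processing factors of Arabidopsis, compared between the mutant ang3 and its control Ler on 4 two-colour oligonucleotide arrays. They were chosen by locus, as snoRNP proteins, helicases, GTPases, nucleases, PUM proteins and export factors of ribosome biogenesis, by a rule that uses no measured value, although the list was drawn up with earlier results of these data known. All 55 were on the array, on 56 probes of 37478 that were not controls. All 55 also passed the filter on dim spots that left 20155 genes and unnamed probes for testing, and each was well above background on 4 of 4 arrays in both genotypes. Of these members, 36 had a symbol or an alias in the gene table used here. The other 19 had none there and are given by locus only, with no role, though some may belong to the role groups used below.

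Both genotypes were grown in vitro at 21 °C under 16 h of light, after 3 days of cold, and no treatment set them apart. The ang3 mutation is known as an allele of RPL5B, a gene for a protein of the large ribosomal subunit, and Ler is the Landsberg erecta accession used as its control. RNA was taken from green seedling parts (4 harvests per genotype with 3 repetitions each, per the series text), called shoot apex in the sample labels, which give growth stage 1.02, whereas the series text gives 1.03. Each array carried both genotypes, with ang3 in Cy5 on replicates 1 and 3 and in Cy3 on replicates 2 and 4. The series text speaks of 2 dye swaps made with biological replicates, but neither it nor the labels say which arrays, if any, share an RNA extract. The p-values rest on the spread between these 4 arrays that is left after a dye term, moderated by the spread of all genes. That spread may be partly technical. All 4 arrays lay on 1 slide and were read in 1 scan, and no batch could be tested.

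Of the marker genes for the labelled tissue, 3 of 5 for the shoot meristem (STM, KNAT1 and CLV1) and 3 of 3 for green leaves were above background on at least 3 arrays in at least 1 genotype, whereas WUS and CLV3 were above it on 0 arrays. The same held for 3 of 3 root markers (COBL9, EXPA7 and IRT1) and 1 of 2 flower markers (AP3), and for 0 of 2 seed markers. In Ler, COBL9 was above background on 2 arrays and EXPA7 on 1, so these root markers passed through ang3 alone. In this bulk tissue, fewer cells of a type and less RNA per cell cannot be told apart.

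Ribosomes are built in the nucleolus, where a long precursor rRNA is transcribed, modified by small nucleolar ribonucleoproteins (snoRNPs), folded with the help of helicases and GTPases, and cut by nucleases. The precursor is then split into particles for the small and for the large subunit, which mature along separate routes, are exported and lose their last assembly factors in the cytoplasm. In Arabidopsis, loss of many of these factors is lethal in gametophytes or embryos, and weaker alleles often give pointed, narrow leaves much like those of ribosomal protein mutants.

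Most of the assembly factors were higher in ang3. Of the 55 genes, 44 rose, 0 fell and 11 did not pass (limma, adjusted p under 0.05 over all genes tested), or 80.0% that rose. The background share was 15.0% of all 20155 genes called higher, and 11.2% called lower. All ratios below are log2 of ang3 over Ler. The median ratio over the 55 genes was 0.33, against 0.011 over all genes tested, and single genes ran from -0.012 (RID3) to 0.63 (NOP10). No member reached a 2-fold difference, which was rare among all genes too, with 131 of 20155 over 2-fold higher. The increases were small and spread over many genes. The ratio lay above 0 on 4 of 4 arrays for 48 members, or 87.3%, where 25.0% of all genes did so, and below 0 on 4 arrays for 0 members. In 47 members the ratio was above the upper quartile of all genes, which stood at 0.11. The medians of the members on replicates 1 to 4 were 0.24, 0.33, 0.37 and 0.29, and those of all genes 0.019, 0.0049, 0.018 and 0.0039. Replicate 1 thus gave the lowest and replicate 3 the highest median of the members. Leaving out 1 array at a time lowered the number that rose, to 38, 26, 10 and 32 without replicates 1, 2, 3 and 4, while 0 fell each time. The share of all genes called higher was then 8.38%, 5.76%, 1.86% and 8.11%, and 18.2% of the members rose without replicate 3. When loess was replaced by median centring of the arrays, the median of all genes moved to 0.14 and that of the members to 0.51, or 0.36 above all genes against 0.32 as reported, and 52 members rose, where 34.5% of all genes did.

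**Figure D1:**
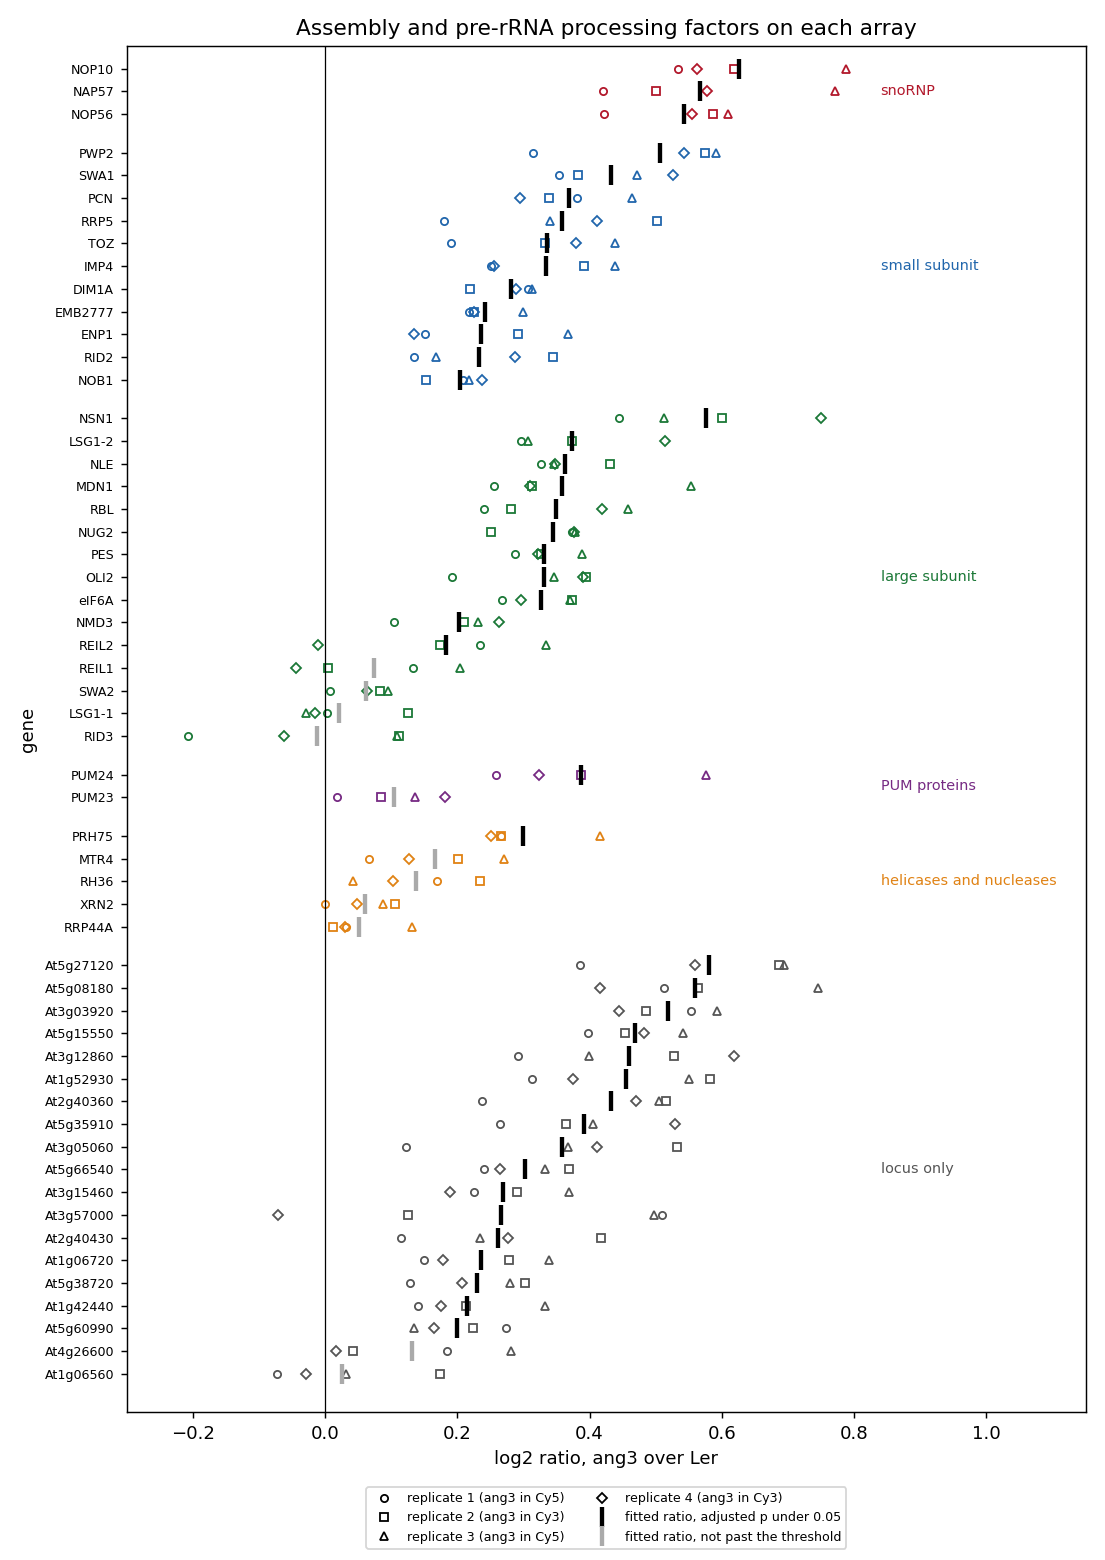
Log2 ratio of ang3 over Ler (horizontal axis) of each of the 55 genes (vertical axis, grouped by role), with 1 symbol for each array and a bar for the fitted ratio, black where the adjusted p was under 0.05. Nearly all symbols lie to the right of 0, and the named genes grouped as snoRNP stand at 0.54 to 0.63.

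**Figure D2:**
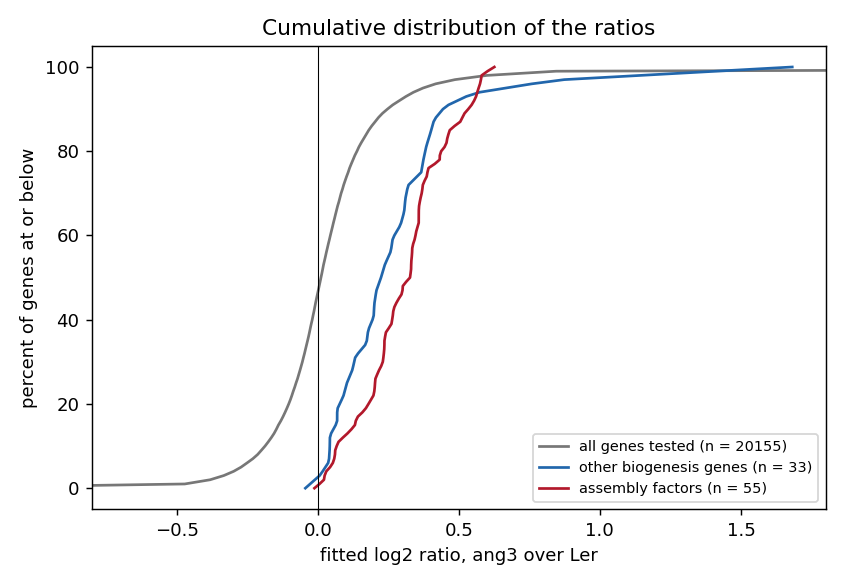
Cumulative percent of genes (vertical axis) at or below a fitted log2 ratio of ang3 over Ler (horizontal axis) for the 55 assembly factors, 33 other ribosome biogenesis genes and all 20155 genes tested. The curve of the assembly factors crosses the middle at 0.33 and that of all genes at 0.011, and the horizontal axis leaves out the outermost ratios of all genes.

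The 3 snoRNP genes with a name had a median of 0.57, the highest of the role groups. NSN1 of the large-subunit route and At5g27120, given no role here, lay above NAP57 and NOP56. Members given by locus only may include further snoRNP genes, so this median may not cover all of them. The difference between groups was not tested. These particles carry guide RNAs that direct ribose methylation (box C/D) or pseudouridylation (box H/ACA) of the precursor rRNA. NOP10 (At2g20490), a small protein of the box H/ACA particle, had ratios of 0.53, 0.62, 0.79 and 0.56 on replicates 1 to 4. All 4 were well above 0, for a level in ang3 1.54-fold that in Ler (log2 ratio 0.63, SE 0.053, SD 0.11, n = 4; adjusted p = 0.0075). NAP57 (At3g57150), also called CBF5, the pseudouridine synthase of the same particle, stood at 0.42, 0.50, 0.77 and 0.58. It rose by 0.57 (SE 0.066, SD 0.15, n = 4; adjusted p = 0.0098), with replicate 3 the highest, as for NOP10. NOP56 (At1g56110), a core protein of the box C/D particle, was at 0.42, 0.59, 0.61 and 0.56. Its arrays lay closer together, with replicate 1 the lowest (log2 ratio 0.54, SE 0.045, SD 0.084, n = 4; adjusted p = 0.0074). Each of the 3 genes rose under all 12 alternative settings, including without each array.

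All 11 genes of the small-subunit route rose, with a median of 0.33. They serve the processome, the large particle that folds and cuts the precursor of the small-subunit rRNA, or the later steps to a finished subunit. Of the WD repeat proteins among them, SWA1 (At2g47990), first known as a gene for the progress of female gametophyte divisions, had ratios of 0.35, 0.38, 0.47 and 0.53 and rose by 0.43 (SE 0.044, SD 0.080, n = 4; adjusted p = 0.0085). PCN (At4g07410, POPCORN), needed for embryo and meristem patterning, was at 0.38, 0.34, 0.46 and 0.29 (log2 ratio 0.37, SE 0.036, SD 0.073, n = 4; adjusted p = 0.0083). Replicate 4 was the highest array for SWA1 and the lowest for PCN, and no array came near 0 for either gene. PWP2 (At1g15440) had the highest ratio of the group, 0.51 (adjusted p = 0.0091), and TOZ (At5g16750), an embryo-lethal locus, stood at 0.34 (adjusted p = 0.015). RRP5 (At3g11964), an RNA-binding pre-rRNA processing factor, was measured by 2 probes that differed. The brighter gave 0.18, 0.50, 0.34 and 0.41 (log2 ratio 0.36; adjusted p = 0.011), and the dimmer -0.0031, 0.27, 0.19 and 0.15 (log2 ratio 0.15; adjusted p = 0.076 over all probes). The reported call uses the brighter probe, and the dimmer alone did not pass. With the mean of the probes RRP5 rose by 0.26 (limma, adjusted p = 0.020).

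IMP4 (At1g63780), a processome subunit, was at 0.33 (adjusted p = 0.014). DIM1A (At2g47420), the methyltransferase that dimethylates the small-subunit rRNA, stood at 0.28 (adjusted p = 0.011). RID2 (At5g57280), a methyltransferase-like gene of root initiation, was at 0.23 (adjusted p = 0.014), EMB2777 (At2g43650), an embryo-defective gene, at 0.24 (adjusted p = 0.014) and ENP1 (At1g31660), of late small-subunit particles, at 0.24 (adjusted p = 0.034). NOB1 (At5g41190), the endonuclease of the last cut that forms the mature small-subunit rRNA, had the lowest ratio of the group at 0.20 (SD 0.036, n = 4; adjusted p = 0.019), with 0.21, 0.15, 0.22 and 0.24 on the arrays. Of these 11 calls, 9 held without replicate 1, 5 without replicate 2, 1 (PWP2) without replicate 3 and 8 without replicate 4. With the processed signals of the scanner software, 10 of the 11 rose, and ENP1 did not pass (adjusted p = 0.059).

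Of 15 genes of the large-subunit route, 11 rose and 4 did not pass, and the median was 0.33. NSN1 (At3g07050), a nucleostemin-like nucleolar GTPase known for roles in leaf and meristem growth, had ratios of 0.44, 0.60, 0.51 and 0.75. Replicates 2 and 4 were the higher ones, and its level in ang3 was 1.49-fold that in Ler (log2 ratio 0.58, SE 0.042, SD 0.13, n = 4; adjusted p = 0.0067). NLE (At5g52820, NOTCHLESS) and MDN1 (At1g67120, midasin) encode partners in yeast, where the midasin ATPase pulls on the NOTCHLESS relative to remodel large-subunit precursors. NLE was at 0.33, 0.43, 0.35 and 0.35 and rose by 0.36 (SE 0.036, SD 0.046, n = 4; adjusted p = 0.0083). MDN1 rose by 0.36 with a wider spread, from 0.25 on replicate 1 to 0.55 on replicate 3 (adjusted p = 0.016). PES (At5g14520, pescadillo), a nucleolar protein of early large-subunit precursors, rose by 0.33 with close arrays (SD 0.042, n = 4; adjusted p = 0.0094). NUG2 (At1g52980), a nucleolar GTPase, rose by 0.34 (adjusted p = 0.0095), RBL (At3g55510, REBELOTE), of floral meristem termination, by 0.35 (adjusted p = 0.014) and OLI2 (At5g55920), an rRNA methyltransferase-like gene whose loss reduces leaf cell number, by 0.33 (adjusted p = 0.011). SWA2 (At1g72440), a gene of gametophyte development, was at 0.062 (adjusted p = 0.25) and did not pass. It was above 0 on 4 arrays, but its ratio was -0.046 with the processed signals and with the series table. RID3 (At3g49180), a WD repeat gene of root initiation, had the only fitted ratio below 0 among the 55 members, -0.012 (SD 0.15, n = 4; adjusted p = 0.91). It ran from -0.21 on replicate 1 to 0.11 on replicate 2, with arrays on either side of 0, and its ratio was above 0 with median centring and without replicate 1 or 4.

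The late cytoplasmic factors of the large subunit were mixed. eIF6A (At3g55620), which keeps the unfinished large subunit from joining the small one, rose by 0.33 (SD 0.053, n = 4; adjusted p = 0.010), and NMD3 (At2g03820), the adaptor for export from the nucleus, by 0.20 (adjusted p = 0.024). LSG1 proteins are GTPases that in yeast release NMD3 after export, and Arabidopsis has a pair of them. LSG1-2 (At1g08410) stood at 0.30, 0.37, 0.31 and 0.51 on replicates 1 to 4 and rose (log2 ratio 0.37, SE 0.040, SD 0.10, n = 4; adjusted p = 0.0089). LSG1-1 (At2g27200) stood at 0.0035, 0.13, -0.029 and -0.015, on either side of 0 (log2 ratio 0.021, SE 0.040, SD 0.071, n = 4; adjusted p = 0.72). LSG1-2 was higher than LSG1-1 on 4 of 4 arrays, by 0.25 to 0.53 with a mean of 0.35 (SD 0.12, n = 4; two-sided exact permutation test over arrays, p = 0.125). With 4 arrays 0.125 is the smallest p this test can give, and it was also 0.125 after adjustment over the 3 pairs compared (LSG1, and REIL and PUM below). Each of these pairs sets a gene that rose against a gene that did not pass. Other related members, among them those given by locus only, were not compared, so the pairs do not speak for related genes in general.

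REIL1 and REIL2, relatives of the yeast Rei1 protein that clears late factors from the large subunit, are linked in Arabidopsis to growth in the cold. REIL2 (At2g24500) was at 0.23, 0.17, 0.33 and -0.011 and rose by 0.18 (SE 0.047, SD 0.14, n = 4; adjusted p = 0.045). Its call was the closest to the threshold of all 44 and held in 3 of 12 alternatives, those with median centring, the stricter filter and the mean of probes. Over all 12 the adjusted p ran from 0.0035 to 0.21, and it was 0.10, 0.13, 0.21 and 0.055 without replicates 1, 2, 3 and 4. REIL1 (At4g31420) was at 0.13, 0.0043, 0.20 and -0.044 and did not pass (log2 ratio 0.074, SE 0.036, SD 0.11, n = 4; adjusted p = 0.18). REIL2 exceeded REIL1 on 4 of 4 arrays by 0.034 to 0.17, with a mean of 0.11 (SD 0.057, n = 4; two-sided exact permutation test, p = 0.125). Both genes were lowest on replicate 4. Of the 11 calls in the large-subunit route, 9, 8, 1 (NSN1) and 7 held without replicates 1, 2, 3 and 4.

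The PUM proteins are RNA-binding proteins with pumilio repeats, and the 2 on this list act in the nucleolus. PUM24 (At3g16810) had ratios of 0.26, 0.39, 0.58 and 0.32 and rose (log2 ratio 0.39, SE 0.061, SD 0.14, n = 4; adjusted p = 0.015). PUM23 (At1g72320), whose loss slows growth, had ratios of 0.017, 0.085, 0.14 and 0.18 and did not pass (log2 ratio 0.10, SE 0.041, SD 0.070, n = 4; adjusted p = 0.12). All 8 of these values were above 0, and the call for PUM24 was lost without replicate 2, 3 or 4. PUM24 was above PUM23 on 4 of 4 arrays, by 0.14 to 0.44 with a mean of 0.28 (SD 0.12, n = 4; two-sided exact permutation test, p = 0.125).

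Of 5 helicases and nucleases with a name, 1 rose and 4 did not pass, with a median of 0.14. This group does not hold all such genes. The endonuclease NOB1, which rose, was counted with the small-subunit route, and members given by locus only may include further helicases or nucleases. PRH75 (At5g62190), a DEAD-box RNA helicase, was at 0.27, 0.27, 0.42 and 0.25 and rose by 0.30 (SE 0.041, SD 0.078, n = 4; adjusted p = 0.012), with replicate 3 apart from the others. MTR4 (At1g59760), the helicase that feeds RNA to the nuclear exosome, was at 0.066, 0.20, 0.27 and 0.13 (log2 ratio 0.17, SE 0.048, SD 0.089, n = 4; adjusted p = 0.060). RH36 (At1g16280), a helicase gene of the female gametophyte, had a ratio of 0.14 (adjusted p = 0.077) and was above 0 on 4 arrays. XRN2 (At5g42540), a nuclear exoribonuclease, had 0.060 (adjusted p = 0.27) and RRP44A (At2g17510), an exoribonuclease of the exosome, 0.051 (adjusted p = 0.34). These 2 nuclease genes had arrays between -0.00040 and 0.13. The call for PRH75 was lost without replicate 3. With median centring 4 of the 5 rose, where 34.5% of all genes did, and the difference of this group from the other members was not tested.

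Of the 19 members known here by locus only, 17 rose, 0 fell and 2 did not pass, with a median of 0.30. At3g03920 had ratios of 0.55, 0.49, 0.59 and 0.44 and the smallest p of all members (log2 ratio 0.52, SE 0.034, SD 0.067, n = 4; adjusted p = 0.0063). At5g15550 was at 0.40, 0.45, 0.54 and 0.48 (log2 ratio 0.47, SE 0.040, SD 0.060, n = 4; adjusted p = 0.0076). In both genes every array was well above 0. At5g27120 had the highest ratio of these loci, with 0.39, 0.69, 0.69 and 0.56 on replicates 1 to 4 (log2 ratio 0.58, SE 0.062, SD 0.14, n = 4; adjusted p = 0.0089), and At5g08180 followed at 0.56 (adjusted p = 0.0083). At3g12860 was at 0.29, 0.53, 0.40 and 0.62 (log2 ratio 0.46, SE 0.040, SD 0.14, n = 4; adjusted p = 0.0077). Its ratio depended on the signals used, and was 0.91 with the processed signals and with the series table (adjusted p = 0.012 in both). At3g05060 was at 0.12, 0.53, 0.37 and 0.41 and rose by 0.36 (adjusted p = 0.014), with replicate 1 well below the others. At1g52930 rose by 0.45, from 0.31 to 0.58 over the arrays (adjusted p = 0.012), and At3g15460 by 0.27, from 0.19 to 0.37 (adjusted p = 0.016). The other 9 loci that rose were At2g40360 at 0.43, At5g35910 at 0.39, At5g66540 at 0.30, At3g57000 at 0.27, At2g40430 at 0.26, At1g06720 at 0.24, At5g38720 at 0.23, At1g42440 at 0.22 and At5g60990 at 0.20. Their adjusted p-values lay between 0.011 and 0.028. At4g26600 did not pass, with 0.18, 0.042, 0.28 and 0.016 on the arrays (log2 ratio 0.13; adjusted p = 0.056), nor did At1g06560 at 0.026 (adjusted p = 0.72). Without replicates 1, 2, 3 and 4 in turn, 15, 9, 5 and 13 of the 19 rose.

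The ratios were set side by side for the 2 dye orientations, which the fit separates by a dye term. Over the 55 genes the median of the mean ratio was 0.30 where ang3 carried Cy5 (replicates 1 and 3) and 0.32 where it carried Cy3 (replicates 2 and 4). The higher value was in Cy3 for 29 members, or 52.7%, against 47.8% of all genes. At3g57000 stood apart. Its ratios on replicates 1 and 3 were 0.51 and 0.50, and on replicates 2 and 4 they were 0.13 and -0.071, a difference that cannot be told apart from one between these pairs of replicates. It rose by 0.27 with the dye term (SE 0.045, SD 0.29, n = 4; adjusted p = 0.018) and did not pass without it (adjusted p = 0.13). Without a dye term 42 members rose and 0 fell, where 11.5% of all genes rose and 8.23% fell. At3g57000 and REIL2 were the 2 members that no longer passed.

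**Figure D3:**
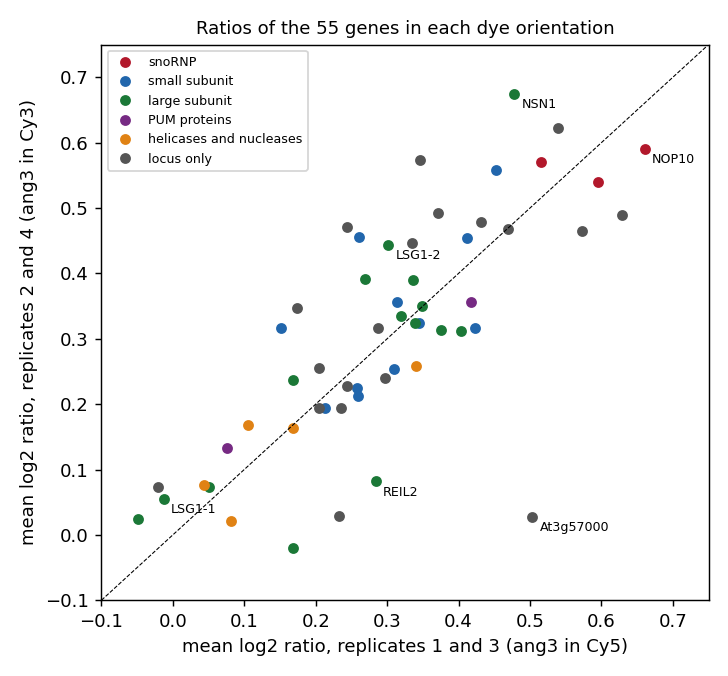
Mean log2 ratio of ang3 over Ler of each of the 55 genes on replicates 1 and 3, with ang3 in Cy5 (horizontal axis), and on replicates 2 and 4, with ang3 in Cy3 (vertical axis), coloured by role, with a dashed line of equal values. Most genes lie along the line, whereas At3g57000 is at 0.50 in Cy5 and 0.027 in Cy3.

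Pearson's r between arrays lay between 0.63 and 0.87 over the 55 genes for the 6 pairs of arrays, and between 0.39 and 0.73 over all genes tested, a description across genes that share each array's labelling and normalization. Leaving out each array and trying each other setting, 10 members rose in every case, namely NOP56, NAP57, NOP10, PWP2, NSN1, At3g12860, At5g27120, At3g03920, At5g08180 and At5g15550, and 51 had a ratio above 0 in every case. How many of all genes rose, or were above 0, under every setting was not counted. Several of these settings leave the ratio itself unchanged, so they are not separate checks of its sign.

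The scanner software's own test was also read, as it stands in the authors' deposited table for each array. In the authors' deposited table, members with a higher level in ang3 at a p under 0.05 numbered 10, 18, 27 and 19 on replicates 1 to 4, and 0 members were lower on any array. The authors' deposited table held 5.57%, 8.36%, 8.69% and 6.57% of all tested genes as higher in the same way. NOP56, NAP57, NOP10, NSN1, At3g12860, At3g03920, At5g08180 and At5g15550 passed on 4 of 4 arrays in the authors' deposited table, 22 members passed on none and the other members on 1 to 3. The share of all tested genes that passed on 4 arrays, or on none, was not counted. Only At3g12860 on replicate 4 met the criterion of the series text, which asks for an absolute log2 ratio above 1 besides a p under 0.05, in the authors' deposited table. Of the 20155 genes tested, 476 met it as higher and 183 as lower on replicate 4 in the authors' deposited table.

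Further genes of the pathway were taken from a list of 34 loci that holds no member, of which 33 were tested. Of these, 20 rose, 0 fell and 13 did not pass, with a median of 0.22 (60.6% rose, against 15.0% of all genes). The 3 with the smallest p were NUC-L2 (At3g18610), a nucleolin gene of the nucleolus, FIB2 (At4g25630), the fibrillarin methyltransferase of box C/D particles, and At3g22660. NUC-L2 stood at 1.25, 1.94, 1.45 and 2.09 on replicates 1 to 4 and rose by 1.68 (adjusted p = 0.0010), the only 2-fold difference on either list. FIB2 was at 0.78, 0.84, 1.01 and 0.74 and rose by 0.84 (adjusted p = 0.0057), and At3g22660 rose by 0.55 (adjusted p = 0.0063). As with MTR4, XRN2 and RRP44A, the nuclease XRN3 and the export receptors XPO1A and XPO1B were among those that did not pass, with ratios of 0.043, 0.042 and 0.10. Of the exosome subunits on the list that have a name, RRP41 and RRP4 rose by 0.40 and 0.26 (adjusted p = 0.011 and 0.025), and CER7 at 0.13 and RRP45a at -0.044 did not pass (adjusted p = 0.077 and 0.41). HEN2, a relative of MTR4, rose by 0.22 (adjusted p = 0.021). XRN3, the exportins, HEN2 and the exosome genes were singled out after their values were seen. Loci of this list without a name were not sorted by role and may include further exosome subunits. Leaving out replicates 1 to 4 in turn left 16, 9, 5 and 13 of the 33, where 8.38%, 5.76%, 1.86% and 8.11% of all genes were called higher.

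Some marker genes of 2 tissues also differed between the genotypes, in both directions. Of all genes tested, 15.0% were called higher and 11.2% lower. The meristem genes STM and KNAT1 rose by 0.36 and 0.32 (adjusted p = 0.0088 and 0.012), while CLV1 was at -0.18 (adjusted p = 0.058). Of the leaf genes LHCB1.1 fell by 0.39 and RBCS1A by 0.17 (adjusted p = 0.010 and 0.038), and RCA was at -0.013 (adjusted p = 0.88). The part of any change in tissue makeup in the ratios of the assembly factors was not tested. In gene order the member nearest to RPL5B was At5g38720, 109 protein-coding genes away, with a ratio of 0.23 (adjusted p = 0.022).

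**Figure D4:**
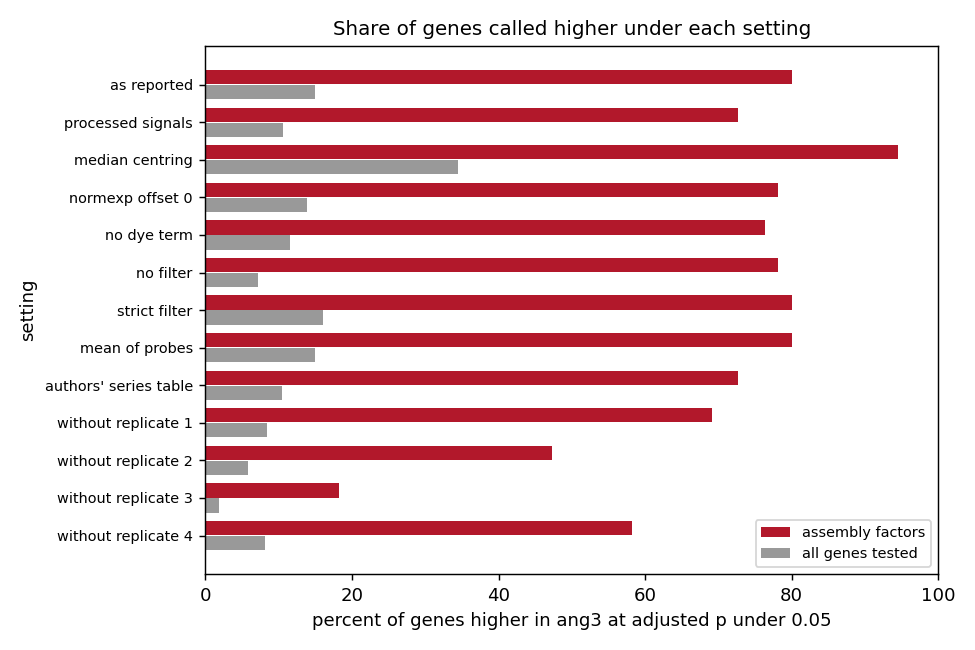
Percent of genes higher in ang3 at an adjusted p under 0.05 (horizontal axis) among the 55 assembly factors and among all genes tested, for the reported setting and each alternative (vertical axis). The assembly factors lie at 80.0% as reported and between 18.2% without replicate 3 and 94.5% with median centring, where all genes reach 1.86% and 34.5%.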

How the data were processed

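Transcripts were measured in 4 two-colour Agilent arrays, each with ang3 and Ler RNA (1 µg per sample, per the labels). Agilent Feature Extraction 10.1.1.1 read the scans, per the file headers and the submitters' processing notes. The median spot and background intensity values were used as deposited. The deposited processed intensities are, per the file headers, detrended and dye-normalized by linear and lowess factors, and served as an alternative, as did the authors' series table of log2 ratios, found to be uncentred (column medians -0.0453, 0.0259, 0.00766 and -0.097) and turned to ang3 over Ler. The deposited log10 ratio and its p-value per array, from the authors' Feature Extraction run, were read as described in the text. Flags marked spots well above background or as outliers.

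In R 4.3.3 with limma 3.58.1, signals were corrected with normexp (offset 50) and normalized by loess within each array. Control spots and outlier spots (12, 6, 12 and 4 on replicates 1 to 4) were left out, and 0 spots were saturated. Between 19224 and 21332 probes per channel were well above background. Probes well above background on at least 3 arrays in at least 1 genotype were kept (20538), and the brightest represented its locus, which left 18450 loci and 1705 unnamed probes. lmFit and eBayes were run on the ratios with a dye term (residual degrees of freedom 2, prior 3.03) and adjusted by Benjamini-Hochberg over all 20155. SE is the standard error of the fitted ratio, taken after the dye term and with the variance moderated over genes. SD is the spread of the 4 ratios themselves, so a difference between the dye orientations widens SD but not SE. The number of arrays limits the precision. The fit was tested on simulated data. Names come from the TAIR10.1 gene table, and no coordinates are given, since the files name no build.

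The members and lists were chosen with earlier results of these data known. The rule for named genes gave array values for the members with the 2 smallest p in each role, for related members and for any that fell or passed 2-fold, with the rest in ranges or single ratios. Roles were limited to members named in the gene table. Figures were drawn with Python 3.11.15 and matplotlib 3.10.9. Alternatives were the processed signals, the series table, median centring, an offset of 0, no dye term, no filter, a stricter filter, the mean of a locus's probes and leaving out each array. These are not independent checks. Dropping the dye term or changing the filter left each member's ratio unchanged, and the mean of probes changed only that of RRP5. The series table gave nearly the same ratios as the processed signals.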

Additional observations from a re-analysis of the deposited data

Results flagged for a closer look

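In 5 of the 55 genes 1 array lay far from the other 3 by Dixon's test, which chance flags in about 1 gene in 20. EMB2777 was at 0.30 on replicate 3 against 0.22 to 0.23 on the others. PRH75 was at 0.42 on replicate 3 against 0.25 to 0.27. RRP44A was at 0.13 on replicate 3 against 0.012 to 0.031. NUG2 was at 0.25 on replicate 2 against 0.37 to 0.38, and At2g40360 at 0.24 on replicate 1 against 0.47 to 0.52. In 4 of these genes, RRP44A aside, every array stayed above 0.20. The cause of these gaps was not tested.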

How the results depend on the processing

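Under the alternatives that keep 4 arrays, 40 to 52 of the 55 assembly factors rose and 0 fell. The share of all genes called higher then ran from 7.23% with no filter to 34.5% with median centring, the setting that gave the 52. Of the 44 members that rose as reported, 39 did so under each of these alternatives, and the same count over all genes was not made. Counts without single arrays ran from 10 to 38 for the assembly factors, 5 to 16 for the other biogenesis genes and 536 to 2909 for all genes called in either direction (5283 with 4 arrays). The count was lowest without replicate 3 for each, and it was also under the reported count by over 1.5 times without replicate 2 for each, without replicate 4 for the other biogenesis genes (13) and for all genes (2585), and without replicate 1 for all genes (2909). These fits keep 3 arrays and 1 residual degree of freedom. Without replicate 3 the median of the members was still 0.28, and it was 0.30 to 0.35 without the others. With median centring the median of the members was 0.51 and that of all genes 0.14, so the members lay 0.36 above all genes, against 0.32 as reported. In that setting 31 of 33 other biogenesis genes rose, where 34.5% of all genes did. Of all genes called, 57.1% were higher in ang3 as reported, 94.2% with median centring and 46.8% with the processed signals. With the processed signals and the series table, ENP1, REIL2, At1g42440 and At5g60990 no longer passed. No paired analysis was possible because the ratios already pair ang3 with Ler within each array, and neither the labels nor the series text say which arrays form a dye-swap pair, so that arrays could not be blocked further.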
